A study of Mus musculus with 7 samples.

Results

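The CXC chemokine ligands are small secreted proteins that steer leukocytes through G protein-coupled receptors, and they are named for a pair of cysteines separated by another residue. The 8 ligands described here, Cxcl1, Cxcl2, Cxcl3, Cxcl9, Cxcl10, Cxcl12, Cxcl14 and Cxcl16, were taken by gene symbol from a table of 24421 mouse genes, and all 8 were present and passed the filter on low counts. The libraries hold RNA of eosinophils, granulocytes of type 2 immunity, sorted from digested muscle by CD45, SiglecF and a CD11b gate, with NK1, Ly6G and CD3e used to leave out other cells. Both groups were sampled 3 days after ntx, a treatment that the labels do not spell out, and the series' design text calls the muscles damaged. The series' title speaks of mdx mice, which lack dystrophin, but the genotype labels of these libraries give WT or IL5-Tg only. The 3 WT libraries are from wild-type mice and the 4 IL5-Tg libraries from mice named for a transgene of IL-5, the cytokine that drives eosinophil production. The labels give neither the promoter of the transgene nor the age or strain of the mice, nor whether each library is a separate mouse, and the p-values reflect library-to-library spread, which may be technical. The comparison asks how CXC ligand RNA in the sorted cells differs between mice with an excess of eosinophils and wild-type mice.

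CXC ligands fall into families by receptor. Cxcl1, Cxcl2 and Cxcl3 carry the ELR motif ahead of the cysteines, signal through Cxcr2 and draw in neutrophils, and their genes are rapid targets of NF-kappaB. Cxcl9 and Cxcl10 are induced by interferons and act on Cxcr3 of T and NK cells. Cxcl12 is made mostly by stromal and endothelial cells and retains leukocytes and progenitors through Cxcr4, Cxcl14 is a ligand of epithelia and fibroblasts whose receptor is debated, and Cxcl16 is a membrane-bound ligand of Cxcr6 that macrophages and dendritic cells make.

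The promoters of the 3 ELR ligands are shown because they share a sequence that was not in the windows of the other members searched. Cxcl3, Cxcl1 and Cxcl2 lie in 1 gene cluster on the plus strand of chromosome 5 (GENCODE vM21 on GRCm38, the mm10 assembly), at chr5:90786103-90789600, chr5:90891241-90893115 and chr5:90903871-90905938. The sequences are the 120 bases ahead of the RefSeq start on GRCm38.p6, plus strand, at chr5:90891125-90891244 for Cxcl1, chr5:90903779-90903898 for Cxcl2 and chr5:90785981-90786100 for Cxcl3. The RefSeq starts of Cxcl1 and Cxcl2 lie inside the genes as GENCODE places them, further in for Cxcl2. Distances below are from the RefSeq starts and would differ from the GENCODE starts. Capitals mark matches, on either strand, to GGGNNNTTC, a shortened form of the site bound by NF-kappaB.
Cxcl1: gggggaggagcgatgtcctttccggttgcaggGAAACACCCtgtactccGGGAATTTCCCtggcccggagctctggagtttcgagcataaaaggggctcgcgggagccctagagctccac
Cxcl2: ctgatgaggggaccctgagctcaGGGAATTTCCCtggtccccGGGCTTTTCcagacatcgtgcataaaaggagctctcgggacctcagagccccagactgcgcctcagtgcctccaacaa
Cxcl3: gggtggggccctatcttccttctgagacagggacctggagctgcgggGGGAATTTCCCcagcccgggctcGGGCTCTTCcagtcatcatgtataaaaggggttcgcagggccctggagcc
The longest run common to all 3 stretches is GGGAATTTCCC, 11 bases that begin 71, 97 and 73 bases ahead of the start in Cxcl1, Cxcl2 and Cxcl3, and each stretch also holds ATAAAAGG, a TATA-like run, closer to the start. It contains overlapping matches to GGGNNNTTC on both strands. Of 32851 RefSeq promoter windows of 300 bases, from 250 bases ahead of the start to 50 after it, 14 or 0.0426% held GGGAATTTCCC, 14.0% held GGGNNNTTC and 1.76% held ATAAAAGG on either strand. A match of letters does not show that a factor binds there.

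The promoter of Cxcl10 is shown for comparison, at chr5:92348840-92349139 on the minus strand (GRCm38.p6), because it joins both kinds of element in 1 window. Capitals mark GAAANNGAA, a form of the interferon-stimulated response element, and the same GGGNNNTTC.
Cxcl10: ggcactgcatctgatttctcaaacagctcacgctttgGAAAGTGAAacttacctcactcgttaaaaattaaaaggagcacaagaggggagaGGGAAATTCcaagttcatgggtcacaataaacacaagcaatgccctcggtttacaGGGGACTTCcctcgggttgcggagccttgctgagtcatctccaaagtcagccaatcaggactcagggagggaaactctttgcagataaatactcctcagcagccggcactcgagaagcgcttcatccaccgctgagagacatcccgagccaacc
The match to GAAANNGAA begins 213 bases ahead of the start, and those to GGGNNNTTC begin 159 and 104 bases ahead of it. GAAANNGAA occurred in 8.56% of all windows, and among the members also in those of Cxcl9, which held GGGNNNTTC too, and Cxcl14. Windows were at hand for 7 of the 8 members, all but Cxcl16. That of Cxcl12 held none of the searched letters, and TTCNNNGAA, a form of the gamma-activated site found in 8.30% of windows, was in that of Cxcl14 alone.

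**Figure D1:**
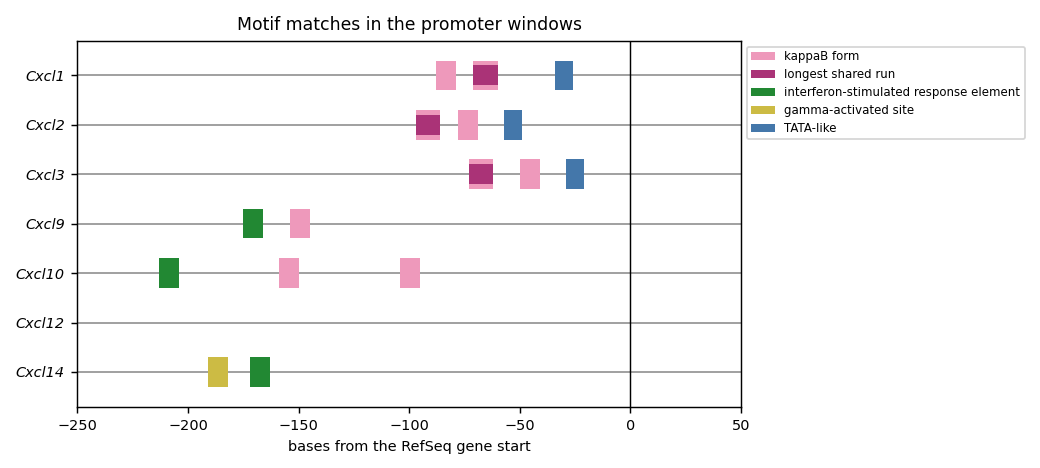
Matches to 5 searched motifs in the promoter windows of 7 CXC ligands, by distance in bases from the RefSeq start (vertical line at 0), with 1 row per gene and coloured boxes for matches on either strand. The longest run common to the ELR ligands is drawn for Cxcl1, Cxcl2 and Cxcl3 at 71, 97 and 73 bases ahead of the start, and the 3 genes also hold a TATA-like run.

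Total counts were 11581365 to 20231509 per library, of which 9665093 to 17447106 were assigned to genes. Levels are given as CPM, reads of a gene per 1000000 reads of a library whose size was scaled by the TMM method. Eosinophil genes used for the sort or typical of the lineage were present in all 7 libraries, with Siglecf at 251 to 857 CPM, the eotaxin receptor gene Ccr3 at 575 to 1393 CPM and the peroxidase gene Epx at 2.72 to 32.8 CPM. Il5 itself was at 338 to 447 CPM in IL5-Tg libraries and at 0 to 1.39 CPM in WT libraries. RNA of other cells was present too, and 2 WT libraries stood apart. WT replicate 3 had a mean log2(CPM + 1) of 2.08 over 10 fibroblast markers, against 6.81 to 8.14 in the other 6 libraries, with Col1a1 at 4.82 CPM there and 500.1 to 1102 CPM elsewhere. WT replicate 1 had the highest mean log2(CPM + 1) over 9 neutrophil markers. It was 4.39 there against 2.81 and 3.82 in the other WT libraries and 2.81 to 3.19 in IL5-Tg libraries. By their summed level WT replicate 1 was instead the lowest of the WT group. The sums were 9263, 10478 and 9876.5 CPM in WT libraries by replicate number, and 2490.5 to 4256.6 CPM in IL5-Tg libraries. The libraries also differed in their low counts, the most common of which was 5, 8 and 12 reads for the 3 WT libraries by replicate number, 4 reads for IL5-Tg replicate 4 and 1 read for the other IL5-Tg libraries. Mean log2(CPM + 1) over other marker lists was 4.82 to 5.94 in WT and 5.52 to 6.02 in IL5-Tg libraries for dendritic cells with class II genes, 1.99 to 4.34 and 4.11 to 5.61 for muscle, 3.31 to 4.01 and 1.61 to 2.85 for mast cells and basophils, 0.39 to 0.59 and 0.49 to 0.83 for T, B and NK cells, and 5.44 to 6.01 and 6.44 to 7.36 for eosinophils. By edgeR 1 of 7 tested mast cell and basophil genes was called lower (Hdc), where 0.0724% of all tested genes were, and 3 of 10 eosinophil genes higher (Ear1, Ear6 and Prg2), where 0.338% were. When 1 library was left out, Hdc was called only without WT replicate 2 or WT replicate 3, and Ear1 was called in all 7 such fits, alone of its list without WT replicate 2, IL5-Tg replicate 1 or IL5-Tg replicate 2. In sorted bulk RNA, fewer cells of a type and less RNA per cell cannot be told apart.

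None of the 8 CXC ligands differed between IL5-Tg and WT libraries by the quasi-likelihood test of edgeR, with Benjamini-Hochberg adjustment over 12428 tested genes. In the same fit 51 genes, or 0.410%, had an adjusted p under 0.05, 0.338% higher and 0.0724% lower in IL5-Tg libraries, so a count of 0 of 8 is near that background. DESeq2 and limma-voom also called 0 of the 8, where they called 1.58% and 0.257% of the genes they tested. At an unadjusted p under 0.05 there was 1 member, Cxcl3, against 9.04% of all tested genes. In 0 of the 8 did the groups fail to overlap, where 9.36% of tested genes did so, 4.76% with IL5-Tg higher and 4.60% with IL5-Tg lower. Of the 8 fold changes 5 were negative, with a median log2 value of -0.34 against 0.03 over all tested genes, and without WT replicate 1 this median was 0.06. The intervals below are wide, so these data do not show that levels were equal.

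**Figure D2:**
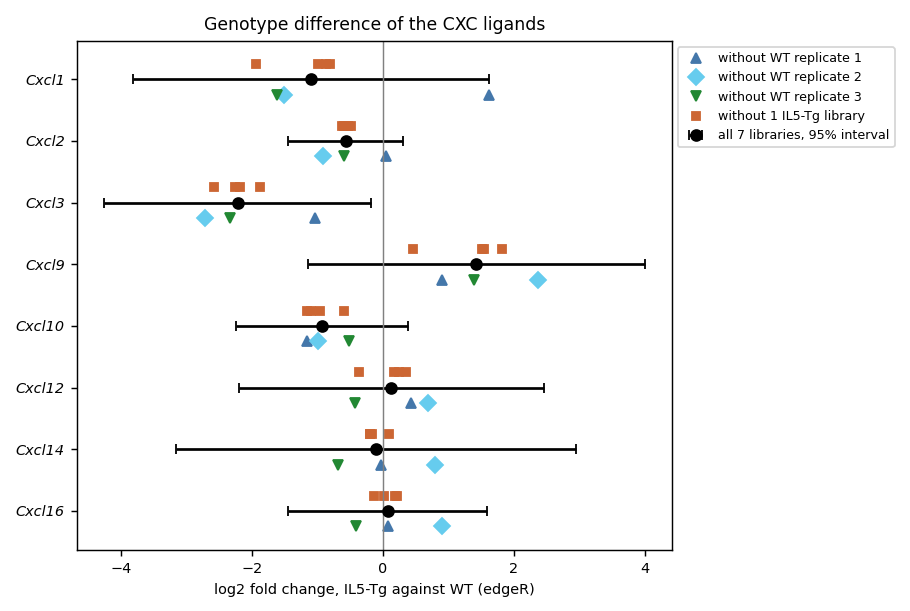
Log2 fold change of each CXC ligand, IL5-Tg against WT, by edgeR, with black points and bars for all 7 libraries and their 95% interval and coloured marks for fits that leave out 1 library. The interval of Cxcl3, from -4.25 to -0.19, lies below 0, though its adjusted p is 0.513, and the value of Cxcl1 goes from -1.10 to 1.62 when WT replicate 1 is left out.

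What the ligands shared was a large spread between libraries of the same genotype. The within-group SD of log2(CPM + 1) was 0.48 for the median tested gene, and it was larger in all 8 members. Cxcl2 had the smallest, 0.66, which exceeded 71.9% of tested genes, and Cxcl14 the largest, 2.72, which exceeded 99.96%. For 6 of the members the SD was larger within the WT group, while Cxcl9 and Cxcl10 spread more among IL5-Tg libraries, with SDs of 1.31 and 1.27 against 0.89 and 0.59. Over all tested genes the median SD was 0.59 in WT and 0.34 in IL5-Tg libraries. WT libraries also had more reads assigned to no gene feature, 15.6% to 18.2% against 9.15% to 13.0%. Genes with reads numbered 10877 to 13813 in WT and 13641 to 14391 in IL5-Tg libraries. The part of library quality in the spread was not tested. The libraries that set the spread differed from ligand to ligand. The sample titles of WT replicate 1 and IL5-Tg replicate 3 open with the same digits. So do those of WT replicate 2 and IL5-Tg replicate 4, and the labels do not explain these digits. The first pair was highest for Cxcl1 and lowest for Cxcl9, and the second was highest for Cxcl12 and lowest for Cxcl3. For Cxcl2, Cxcl10, Cxcl14 and Cxcl16 neither pair was highest or lowest together. The part of the title start in the spread was not tested.

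**Figure D3:**
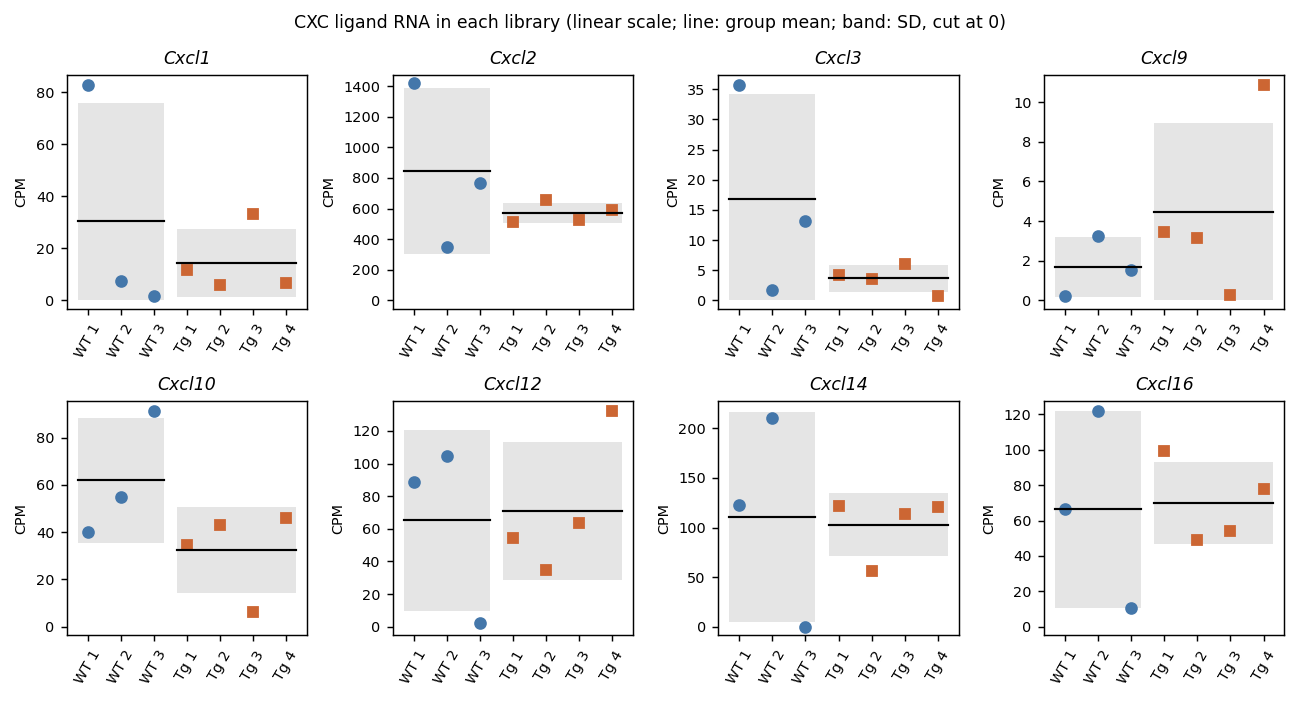
RNA of the 8 CXC ligands in CPM (linear axes) in each of the 3 WT (circles) and 4 IL5-Tg libraries (squares, labelled Tg), with a line at the group mean and a band of 1 SD, cut at 0. WT replicate 1 is the highest library for Cxcl1, Cxcl2 and Cxcl3, WT replicate 3 is the lowest for Cxcl12, Cxcl14 and Cxcl16, and IL5-Tg replicate 3 is the lowest for Cxcl10.

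Per length, Cxcl2 was the highest of the 8 ligands in all 7 libraries. Dividing by the joined exon length of GENCODE vM21 gave a median of 287 CPM per kb for Cxcl2, followed by Cxcl14 at 65.9, Cxcl16 at 21.996, Cxcl10 at 19.0, Cxcl12 at 7.77, Cxcl1 at 4.05, Cxcl3 at 1.21 and Cxcl9 at 1.04. For Cxcl1, Cxcl2 and Cxcl3 this length equals the whole gene, and for Cxcl12 it is 8176 bases. The order below Cxcl2 may thus depend on the length used. The lowest Cxcl2 value, 168 CPM per kb in WT replicate 2, was above the highest of Cxcl14, 115 in that same library. The order is that of the 8 only: Pf4, a CXC ligand outside them, had a median of 146 CPM per kb and a range of 12.2 to 256. Neighbours further down did not separate: Cxcl16 spanned 3.54 to 40.4 and Cxcl10 spanned 2.82 to 40.5 CPM per kb. Cxcl2 made up 45.9% to 88.2% of the summed per-length level of the 8 ligands, the most in WT replicate 3.

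Cxcl2 stood at 1421, 348 and 765 CPM in the WT libraries and at 510.1, 653, 524 and 593 CPM in the IL5-Tg libraries, each in the order of replicate numbers, as in all such lists that follow. The WT libraries thus bracketed the IL5-Tg libraries, which lay close together, within 1.28-fold of each other. The means were 844 ± 541 (SD, n = 3) and 570 ± 66.2 CPM (SD, n = 4). IL5-Tg against WT gave -0.57 ± 0.40 on the log2 scale (SE; 95% interval -1.45 to 0.31; adjusted p by edgeR = 0.782). Without WT replicate 1 the log2 value was 0.042. The level of Cxcl2 was second highest in WT replicate 3, the library with the lowest fibroblast markers.

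Cxcl1, the other main neutrophil attractant of the mouse, followed a different order. Its levels were 82.7, 7.60 and 1.80 CPM in the 3 WT libraries and 11.8, 5.76, 33.3 and 6.65 CPM in the 4 IL5-Tg libraries. WT replicate 1 and IL5-Tg replicate 3 were high and WT replicate 3 was lowest, so the WT group alone spanned 46.1-fold and enclosed the other group. That lowest value rests on 19 reads in a library whose most common low count was 12 reads, so the span is uncertain. The log2 fold change was -1.10 ± 1.17 (SE; interval -3.81 to 1.61; adjusted p by edgeR = 0.890), and 1.62 without WT replicate 1 (adjusted p by edgeR = 0.603).

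Cxcl3, the third of the neighbouring ELR genes, had the largest difference of the 8. It stood at 35.6, 1.69 and 13.2 CPM in WT and at 4.22, 3.54, 6.05 and 0.779 CPM in IL5-Tg libraries. WT replicates 1 and 3 were above all IL5-Tg libraries, and WT replicate 2, with 16 reads, was among the lowest. The lowest, IL5-Tg replicate 4, had 15 reads. The most common low counts of these libraries were 8 and 4 reads, so the low values are uncertain. The means were 16.9 ± 17.3 (SD, n = 3) and 3.64 ± 2.19 CPM (SD, n = 4). IL5-Tg against WT gave -2.22 ± 0.90 on the log2 scale (SE; edgeR unadjusted p = 0.0356, adjusted p = 0.513), which did not pass. It was -1.03 without WT replicate 1 and -2.72 without WT replicate 2, where the adjusted p was 0.110.

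Cxcl5, an ELR ligand of the same gene cluster outside the 8, followed the order of libraries seen in Cxcl1 more closely than Cxcl2 did. It was at 33.9, 2.64 and 0 CPM in WT and at 4.50, 1.69, 6.85 and 2.70 CPM in IL5-Tg libraries, highest in WT replicate 1, next in IL5-Tg replicate 3 and lowest in WT replicate 3. The 0 reads of WT replicate 3 allow up to 0.284 CPM by a limit of 3 reads, counting error only. With a most common low count of 12 reads in that library, this limit may be too low. As a description over 7 libraries, Pearson's r between Cxcl1 and Cxcl5 on log2(CPM + 1) was 0.98 (Spearman's rho 0.96), and 0.95 without WT replicate 1, whereas for Cxcl1 and Cxcl2 it was 0.44 and fell below 0, to -0.47, without that library. Among genes of at least 10 CPM, those most like Cxcl1 were Arhgap21, the monocyte chemokine Ccl7 and the pentraxin Ptx3, each with r of 0.96, and Ptx3 had the same order of libraries as Cxcl1 (rho 1). Those most like Cxcl2 were Stk19, Smndc1 and Ccdc47, with r of 0.98, and those most like Cxcl3 were Sfswap, Clasrp and Ppif, with r from 0.95 to 0.96. With 7 libraries and 12428 tested genes such values are high for some gene in any case.

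**Figure D4:**
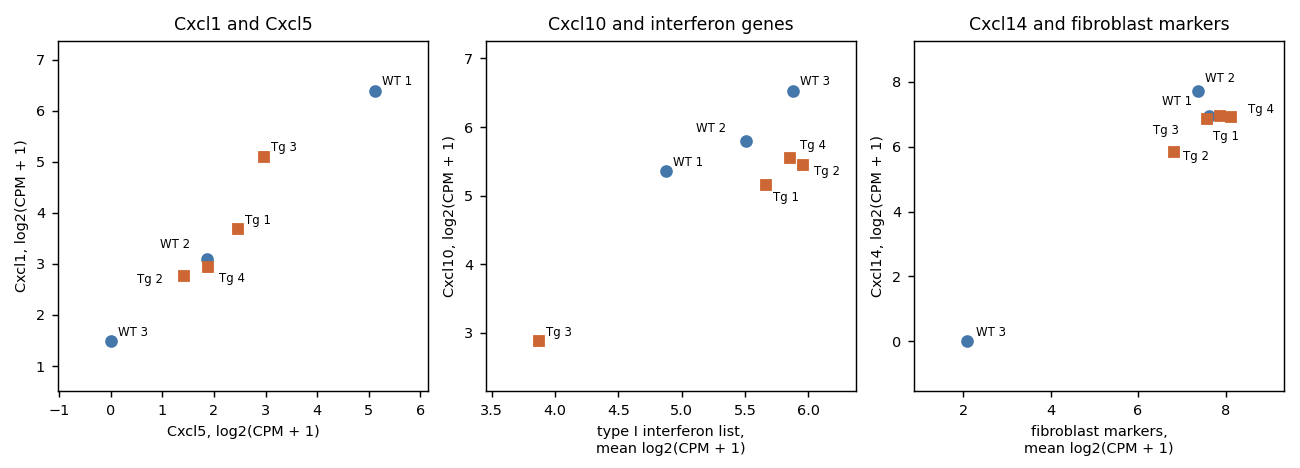
Levels per library as log2(CPM + 1) for Cxcl1 against Cxcl5, Cxcl10 against the mean of 18 type I interferon response genes, and Cxcl14 against the mean of 10 fibroblast markers, with circles for WT and squares for IL5-Tg (Tg) libraries. WT replicate 1 is at the top of the first panel, IL5-Tg replicate 3 stands alone at the lower left of the second, and WT replicate 3, with 0 reads of Cxcl14, stands alone at the lower left of the third.

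The receptor of the ELR ligands, Cxcr2, was at 32.7, 14.1 and 5.198 CPM in WT and at 4.47 to 15.8 CPM in IL5-Tg libraries, so the groups overlapped (log2 fold change -0.55, adjusted p by edgeR = 0.891). Cxcr2 is also a neutrophil gene, and like Cxcl1, Cxcl2 and Cxcl3 it was highest in WT replicate 1. The neutrophil alarmin gene S100a8 was at 157, 65.1 and 2.36 CPM in WT and 5.43 to 10.8 CPM in IL5-Tg libraries. Of 9 neutrophil markers present, 6 were tested and 1, Retnlg, was called lower by edgeR (adjusted p = 0.0416), where 0.0724% of all tested genes were. In that fit 4 of the 6 had an unadjusted p under 0.05, where 9.04% of all tested genes did. Their log2 values were negative for 5, where 47.9% of all were, with a median of -1.60. DESeq2 called 3 neutrophil markers lower (Retnlg, S100a8 and S100a9) and limma-voom 0. When 1 library was left out edgeR called 0 except without WT replicate 3, where it called the same 3 as DESeq2. The granule genes of early neutrophils Elane and Mpo had 21 and 44 reads in all libraries together, with 0 reads of Elane in WT libraries. The part of such RNA in the ELR ligands was not tested. The NF-kappaB response list holds inflammatory genes that are induced together with these ligands, among them the inhibitor gene Nfkbia and the cytokine gene Tnf. Of 19 tested members 0 were called by edgeR or limma-voom, 11 had an unadjusted p under 0.05, where 9.04% of all tested genes did, and 15 log2 values were negative, where 47.9% of all were, with a median of -0.75. DESeq2 called 3 lower, where it called 0.557% of all genes lower: Nfkbia, Tnf and, named after its value was seen, Il6. Nfkbia was at 3367, 4423 and 3571 CPM in WT and 984 to 2004 CPM in IL5-Tg libraries, groups that did not overlap, as in 9.36% of all tested genes, at a log2 fold change of -1.25 ± 0.29 (SE; adjusted p by edgeR = 0.148). For Tnf the log2 value was -1.65 ± 0.42 (SE; adjusted p by edgeR = 0.195). Leaving out 1 library at a time gave -1.38 to -1.08 for Nfkbia and -2.01 to -1.05 for Tnf, and Tnf was called lower by edgeR without WT replicate 2.

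The interferon-induced ligands varied in their own way. Cxcl10 was at 39.9, 54.7 and 91.3 CPM in WT and at 34.8, 42.8, 6.34 and 45.8 CPM in IL5-Tg libraries. WT replicates 2 and 3 were above every IL5-Tg library, and IL5-Tg replicate 3 was far below the rest, so that the groups overlapped only through WT replicate 1. The means were 62.0 ± 26.4 (SD, n = 3) and 32.4 ± 18.02 CPM (SD, n = 4). IL5-Tg against WT gave -0.93 ± 0.58 on the log2 scale (SE; interval -2.25 to 0.38; adjusted p by edgeR = 0.743). It was -0.59 without IL5-Tg replicate 3 and -0.52 without WT replicate 3.

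Cxcl9 was near the limit of detection, with 4, 31 and 16 reads in WT and 37, 41, 4 and 209 reads in IL5-Tg libraries. These are 0.242 to 3.27 CPM and 0.292 to 10.9 CPM. IL5-Tg replicate 4 was highest, while WT replicate 1 and IL5-Tg replicate 3 had 4 reads each. Its 16 reads in WT replicate 3 compare with a most common low count of 12 reads there. The log2 fold change was 1.42 ± 1.16 (SE; adjusted p by edgeR = 0.827), opposite in sign to that of Cxcl10, and 0.46 without IL5-Tg replicate 4.

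The library low in Cxcl10 was also low in other interferon targets. The mean log2(CPM + 1) of 18 type I interferon response genes was 3.87 in IL5-Tg replicate 3, 4.88 in WT replicate 1 and 5.51 to 5.96 in the other 5 libraries. Of these 18 genes 0 were called by edgeR, DESeq2 or limma-voom and 0 had an unadjusted p under 0.05, with 10 log2 values positive. The antiviral gene Ifit2 was at 5.90 CPM in IL5-Tg replicate 3 and 52.3 CPM in IL5-Tg replicate 4, the lowest and highest of the 7. The 3 genes most like Cxcl9 were Abca1, Ifit2 and Cdc42bpg, with r of 0.96, 0.96 and 0.92. The log2 fold change of Ifit2 was 0.96 (adjusted p by edgeR = 0.744), and that of Ifit1 was 0.83 (adjusted p by edgeR = 0.794). In the interferon gamma list 1 of 19 tested genes was called, Socs1, a feedback inhibitor of cytokine receptors that IL-5 signalling also induces, at 18.3 ± 1.62 (SD, n = 3) against 68.4 ± 14.4 CPM (SD, n = 4; adjusted p by edgeR = 0.0165), where 0.338% of all tested genes were called higher. Its adjusted p was 0.0924 by limma-voom, and by edgeR 0.095 without WT replicate 1, 0.0844 without IL5-Tg replicate 2 and 0.0643 without IL5-Tg replicate 3. The genes most like Cxcl10 were the nuclear receptor gene Nr4a3, Cox7a2l and the interferon-induced kinase gene Eif2ak2, with r from 0.97 to 0.98 over 7 libraries, and without IL5-Tg replicate 3 and WT replicate 3 these were 0.86, 0.49 and 0.45. Cxcr3, the receptor of both ligands, was at 0 to 3.75 CPM in WT and 0.623 to 5.32 CPM in IL5-Tg libraries.

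Cxcl12 and Cxcl14 were set apart by 1 library. Cxcl12 was at 89.0, 104 and 1.98 CPM in WT and at 54.1, 34.6, 63.5 and 132 CPM in IL5-Tg libraries. WT replicate 3 was 17.4-fold below the next lowest library, and the other 6 overlapped. It had 21 reads of Cxcl12, and its most common low count was 12 reads, so this gap is uncertain. The means were 65.1 ± 55.2 (SD, n = 3) and 71.0 ± 42.4 CPM (SD, n = 4). IL5-Tg against WT gave 0.13 ± 1.0 on the log2 scale (SE; interval -2.20 to 2.45; adjusted p by edgeR = 0.985), and -0.43 without WT replicate 3. Most like Cxcl12 were Thbs3, Prc1 and Mrpl53, each with r of 0.99 over 7 libraries.

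Cxcl14 was at 123, 210.3 and 0 CPM in WT and at 122, 55.8, 114 and 120.4 CPM in IL5-Tg libraries. In WT replicate 3 it had 0 reads, which allows up to 0.284 CPM by a limit of 3 reads, counting error only. The most common low count of that library was 12 reads, so this limit may be too low. The other 6 libraries had 726 to 2319 reads. The log2 fold change was -0.11 ± 1.31 (SE; interval -3.16 to 2.95; adjusted p by edgeR = 0.990), and -0.68 without WT replicate 3 (adjusted p by edgeR = 0.607), where WT replicate 2 remained the highest library. The genes most like Cxcl14 were Col5a3, Akr1b8 and the collagen crosslinking gene Loxl1, each with r of 0.99 over 7 libraries, but 0.43, 0.67 and 0.63 without WT replicate 3 and IL5-Tg replicate 2.

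Cxcl16 was at 66.5, 122 and 10.7 CPM in WT and at 99.2, 49.3, 54.0 and 77.6 CPM in IL5-Tg libraries, with WT replicate 3 lowest and WT replicate 2 highest. The means were 66.4 ± 55.7 (SD, n = 3) and 70.0 ± 23.1 CPM (SD, n = 4; log2 fold change 0.08 ± 0.66 SE, interval -1.44 to 1.60, adjusted p by edgeR = 0.986). Its log2 value was -0.42 without WT replicate 3 and 0.89 without WT replicate 2. The genes most like it were Bod1, the endothelial receptor gene Tie1 and Phgdh, with r of 0.99.

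Fibroblast, macrophage and endothelial markers were lowest in WT replicate 3, and so were those of muscle, dendritic cells and T, B and NK cells. Not every list was: mast cell and basophil markers were highest there, at a mean log2(CPM + 1) of 4.01. Eosinophil markers were at 6.01 there, the highest of the WT libraries. That library also had the fewest genes with reads, 10877, and the largest share assigned to no gene feature, 18.2%. The part of library quality in these levels was not tested. All 10 fibroblast markers were tested and none was called by edgeR, DESeq2 or limma-voom, with 1 at an unadjusted p under 0.05, and their list level ranged from 2.08 to 7.62 in WT and from 6.81 to 8.14 in IL5-Tg libraries. The ratio of Cxcl12 to Col1a1 reads was 0.049 to 0.178 in the 6 libraries other than WT replicate 3 and 0.412 there, from 21 and 51 reads. That of Cxcl14 to Col1a1 was 0.0973 to 0.280 in those 6 and 0 in WT replicate 3. The 12 macrophage and monocyte markers stood at 8.13, 8.34 and 7.09 in WT and 7.82 to 8.40 in IL5-Tg libraries, and the macrophage complement gene C1qa was at 68.4 CPM in WT replicate 3 against 350 to 776 CPM elsewhere. Cxcl16 was 0.129 to 0.181 of C1qa in 6 libraries, WT replicate 3 included at 0.156, and 0.0696 in IL5-Tg replicate 3. As a description, r of Cxcl16 over 7 libraries was 0.915 with C1qa (rho 0.607) and 0.942 with Col1a1 (rho 0.75). Without WT replicate 3 these r were 0.426 and 0.621. Endothelial markers ranged from 2.10 to 3.76 in WT and 3.42 to 4.56 in IL5-Tg libraries. The part of these cells' RNA in the ligand levels was not tested.

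Receptors for these ligands ranged from abundant to almost absent. Cxcr4, the Cxcl12 receptor, was at 1331, 539 and 980 CPM in WT and 547, 808, 504 and 519 CPM in IL5-Tg libraries, so WT replicate 2 fell among the IL5-Tg libraries. The log2 fold change was -0.68 ± 0.33 (SE; interval -1.41 to 0.05; adjusted p by edgeR = 0.604). As a description, r between Cxcr4 and Cxcl2 was 0.88 over 7 libraries and 0.71 without WT replicate 1. Ackr3, a scavenger of Cxcl12, was at 8.46, 7.39 and 0 CPM in WT and 3.23 to 11.2 CPM in IL5-Tg libraries, and like its ligand it was lowest in WT replicate 3. Cxcr6, the Cxcl16 receptor, did not pass the filter on counts, with 26 reads in all libraries together. Ackr1, a chemokine scavenger of venules and red cells, was at 2.30, 1.06 and 0 CPM in WT and 3.84 to 11.7 CPM in IL5-Tg libraries. It was the 1 of 6 tested receptors whose groups did not overlap, where 9.36% of tested genes did so, and its log2 fold change of 2.56 ± 1.07 did not pass (SE; adjusted p by edgeR = 0.517). No receptor was called by edgeR, DESeq2 or limma-voom, and Ackr1 alone had an unadjusted p under 0.05 by edgeR. Cxcr1 had 56 reads in all and a log2 value of 1.52 (adjusted p by edgeR = 0.901), while Cxcr5, Ackr2 and Ackr4 had 32, 13 and 11 reads and were not tested.

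**Figure D5:**
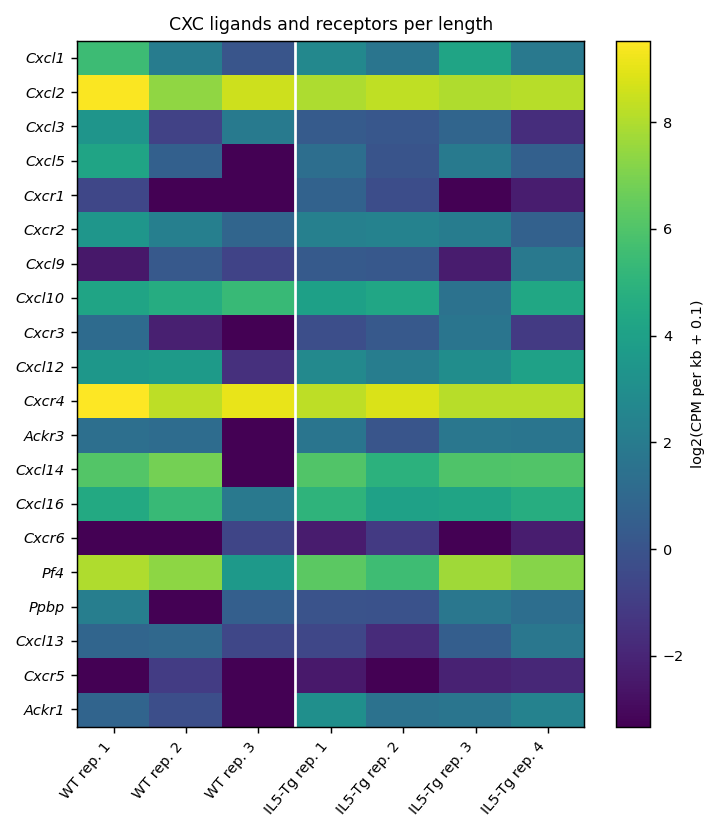
Heat map of log2(CPM per kb of joined exon + 0.1) for 20 CXC ligands and receptors (rows, each receptor after its ligands) in the 7 libraries (columns, WT left of the white line), from dark (low) to yellow (high). Cxcl2 and Cxcr4 are bright in all libraries, and the column of WT replicate 3 is dark for Cxcl5, Cxcl14, Ackr3 and Ackr1, which had 0 reads there.

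Among the other CXC ligands, Pf4, the platelet chemokine that macrophages also express, was abundant, at 185, 119 and 8.79 CPM in WT and 33.7 to 147 CPM in IL5-Tg libraries. Its log2 fold change was -0.29 ± 0.88 (SE; adjusted p by edgeR = 0.960), and it too was lowest in WT replicate 3. Ppbp, the other platelet ligand, and Cxcl13, the B cell attractant, stayed below 5 CPM, with log2 values of -0.09 and -0.04. Cxcl11 and Cxcl15 had 0 reads in all libraries, which allows up to 0.156 to 0.317 CPM per library, counting error only, and Cxcl17 had 1 read. Of the 4 tested members 0 were called by edgeR, DESeq2 or limma-voom and 0 had an unadjusted p under 0.05.

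Genes that process or display chemokines did not differ as called genes either. Of 10 tested members, which include the sheddases Adam10 and Adam17 and the heparan sulphate enzymes that anchor chemokines, 0 were called by edgeR, DESeq2 or limma-voom, and 1 had an unadjusted p under 0.05. That gene was Mmp9, a gelatinase that trims ELR chemokines, at 952, 2590 and 3932 CPM in WT and 803 to 1637 CPM in IL5-Tg libraries (log2 fold change -1.14 ± 0.44 SE, adjusted p by edgeR = 0.467). The heparan sulphate sulphotransferase gene Ndst1 had a log2 value of 0.43 (adjusted p by edgeR = 0.821).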

How the data were processed

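RNA of sorted muscle eosinophils was made into stranded mRNA libraries and sequenced in pairs on an Illumina NextSeq, per the labels' protocols. The values the authors deposited are raw read counts per gene symbol in 7 libraries. The submitters' processing notes name mm10, STAR, Bowtie and bcl2fastq (2.20). What each did, which program counted reads and whether strand was used: not given in the sources used here. Reads of overlapping genes are therefore uncertain. The 2 entries that name no gene, no feature and ambiguous (0.750% to 0.943% of a library), were left out. The no feature entry held 15.6% to 18.2% of a WT library and 9.15% to 13.0% of an IL5-Tg library.

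All genes were tested with edgeR 4.0.16 in R 4.3.3 (quasi-likelihood F test, TMM, filterByExpr, robust, with genotype alone in the model) and Benjamini-Hochberg adjustment over 12428 genes at 0.05. Standard errors come from the fold change and F, and 95% intervals from the t distribution. Limits of 3 reads cover counting error only, and they may be too low where the most common low count exceeded 1 read. Replicate numbers only name libraries. Pairs of libraries within a group had chi-square values per gene of 106 to 149 in WT and 26.0 to 89.6 in IL5-Tg, and none was counted as a repeat. Members, lists and tests were chosen with earlier results of these data known. Named are all listed CXC ligands and receptors, called members of the response lists or else the 2 with the smallest p, leading markers, and the 3 genes most like each member by Pearson's r. On simulated counts for IL5-Tg against WT with 12428 genes, the test found 2% of 50 genes altered 2-fold, 38% of those altered 4-fold, 70% of those altered 8-fold and 80% of those altered 16-fold. The altered genes were drawn from all tested genes. All 8 members spread more than the median gene, so these shares may be too high for them. Alternatives included DESeq2 1.42.0 and limma 3.58.1, and the closing section gives their effect. Positions are from GENCODE vM21 and promoters from RefSeq on GRCm38.p6.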

Additional observations from a re-analysis of the deposited data

Results flagged for a closer look

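Among the 4 IL5-Tg libraries, 28 genes with reads in more than 1 of them were checked for a highest or lowest library farther from the rest than Dixon's test at 95% allows, where chance marks about 1 in 20. It marked 3, in each of which IL5-Tg replicate 2 was the library apart: Cxcl14 was lowest there at 55.8 CPM, Ackr3 was lowest at 3.23 CPM, and Cxcr4 was highest at 808 CPM. For 2 more genes only 1 IL5-Tg library had reads, which meets the criterion by construction: Cxcl17 at 0.0769 CPM in IL5-Tg replicate 2, which is 1 read, and Ackr2 at 0.947 CPM in IL5-Tg replicate 3, which is 13 reads.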

How the results depend on the processing

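None of the 8 ligands was called under any of the 18 alternatives in which it was tested; Cxcl9 was tested in 17 of them, since it did not pass the filter at a mean CPM of 5. The count of all called genes, 51, was 224 by DESeq2, 32 by limma-voom with quality weights, 100 with counts divided by each library's most common low count, 97 by the newer edgeR fit (chosen after seeing the data) and 16 to 97 when 1 library was left out. Leaving out WT replicate 1 gave 19 and WT replicate 3 gave 97, while for IL5-Tg replicates 1, 2, 3 and 4 the counts were 16, 16, 17 and 30. The count of called receptor, processing and response genes, 1 (Socs1), was 4 by DESeq2, 0 by limma-voom and 0 to 2 when 1 library was left out.

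Signs of uncalled log2 fold changes turned as follows, and the cause was not tested. When 1 library was left out, the values ranged from -1.94 to 1.62 for Cxcl1, -0.91 to 0.042 for Cxcl2, -0.43 to 0.68 for Cxcl12, -0.68 to 0.79 for Cxcl14, -0.42 to 0.89 for Cxcl16, -2.18 to 1.58 for Cxcl5, -1.005 to 0.32 for Cxcl13, -0.81 to 0.43 for Pf4, -0.63 to 1.40 for Ppbp, -0.95 to 0.30 for Cxcr2 and -0.068 to 4.36 for Cxcr3. The positive ends of Cxcl1, Cxcl2, Cxcl5, Pf4, Ppbp and Cxcr2 came without WT replicate 1. By limma-voom, Cxcl14 was 1.41 and Ppbp 0.88. After thinning, Cxcl13 was 0.11 and Ppbp 0.022, and by the newer fit Cxcl13 was 0.11. With a block for the digits that open the sample titles, whose meaning the labels do not give, Cxcl12 was -0.074, Cxcl16 -0.48, Cxcl13 0.21, Ppbp 1.79 and Cxcr1 -1.62, and 0 ligands and 52 genes in all were called. Only WT replicate 1 with IL5-Tg replicate 3, and WT replicate 2 with IL5-Tg replicate 4, share a title start across the genotypes. The genotype difference in that fit therefore rests on these libraries alone. That block is the only one that was run across the genotypes. By replicate number, no paired analysis was possible because these numbers only follow the order of deposit and pair no libraries. Thinning to the smallest library gave 47 called genes.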
